A study of Mus musculus with 9 samples.

Results

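The BCL2 family of survival and death genes was followed through 10 of the 55367 gene symbols counted in each library. The 10 were chosen by name, as the rows of Bcl2, Bcl2l1, Mcl1 and Bcl2a1b (pro-survival), Bax and Bak1 (effectors of cell death), and Bid, Bcl2l11, Bbc3 and Pmaip1 (BH3-only), and all 10 had enough counts to be tested. The libraries came from monocytes of adult mice that were kept for 4 h with P7 platelets (by usual convention, platelets of mice at postnatal day 7), with adult platelets or with a control buffer, then washed and taken for mRNA sequencing, with 3 libraries in each group. The labels name no allele, strain or sex, nor how the monocytes and platelets were obtained or whether animals were pooled. Since no label says that replicates came from different cultures or animals, a p-value here reflects no more than library-to-library spread, which may be technical.

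Proteins of the BCL2 family decide whether the outer membrane of mitochondria stays intact. BAX and BAK1 open it and so free cytochrome c, which starts the caspase cascade; BCL2, BCL-XL, MCL1 and A1 (the products of Bcl2, Bcl2l1, Mcl1 and the Bcl2a1 genes) hold them back, and the BH3-only proteins BID, BIM (Bcl2l11), PUMA (Bbc3) and NOXA (Pmaip1) relieve that block or act on BAX and BAK1 directly. Monocytes are short-lived cells in which MCL1 and A1, both proteins of fast turnover, are known survival factors.

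In libraries from monocytes kept with P7 platelets, transcripts of all 4 pro-survival members were higher than in control libraries. The 3 rises other than that of Mcl1 were at least 2.05-fold, and that of Mcl1 was 1.21-fold. Bcl2l1 is also a transcript of platelets and red cells, and the source of its reads was not tested. Bax, an effector of cell death, rose as well, 1.28-fold. Bid fell to 30.1 ± 2.38 normalised CPM (CPM, counts per 1000000 of the library total after scaling), against 89.7 ± 3.41 in control libraries, a 2.98-fold difference (mean ± SD, n = 3 each). Bcl2l11, which encodes the death inducer BIM, rose by a similar amount with P7 and with adult platelets, 1.52-fold and 1.58-fold. With adult platelets Pmaip1 was 1.58-fold and Bid 1.23-fold lower than in control, and the 4 pro-survival transcripts did not pass the test (1 of them, Bcl2l1, had an unadjusted p under 0.05).

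Counted over the family, edgeR's quasi-likelihood test at an adjusted p below 0.05 called 6 members higher and 1 lower in P7 platelet against control libraries. In that comparison 59.2% of the 13707 genes tested were called, 29.9% higher and 29.3% lower, so the 7 called members lie near the share of all genes while their split is uneven. The members' median log2 fold change was 0.32, and that of all genes tested was -0.01. Adult platelet against control libraries gave 1 member higher and 2 lower, where 26.4% of all genes were called (14.3% higher, 12% lower), with a median of 0.04 for the members. P7 against adult platelet libraries gave 6 higher and 2 lower, where 39.6% of all genes were called (19.7% higher, 19.8% lower), with a median of 0.36. Normalised CPM of the compared groups did not overlap for 8, 4 and 8 members in the same order of comparisons, against 69.1, 42.7 and 49% of all genes. The comparisons share libraries, so their values below are given side by side.

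**Figure D1:**
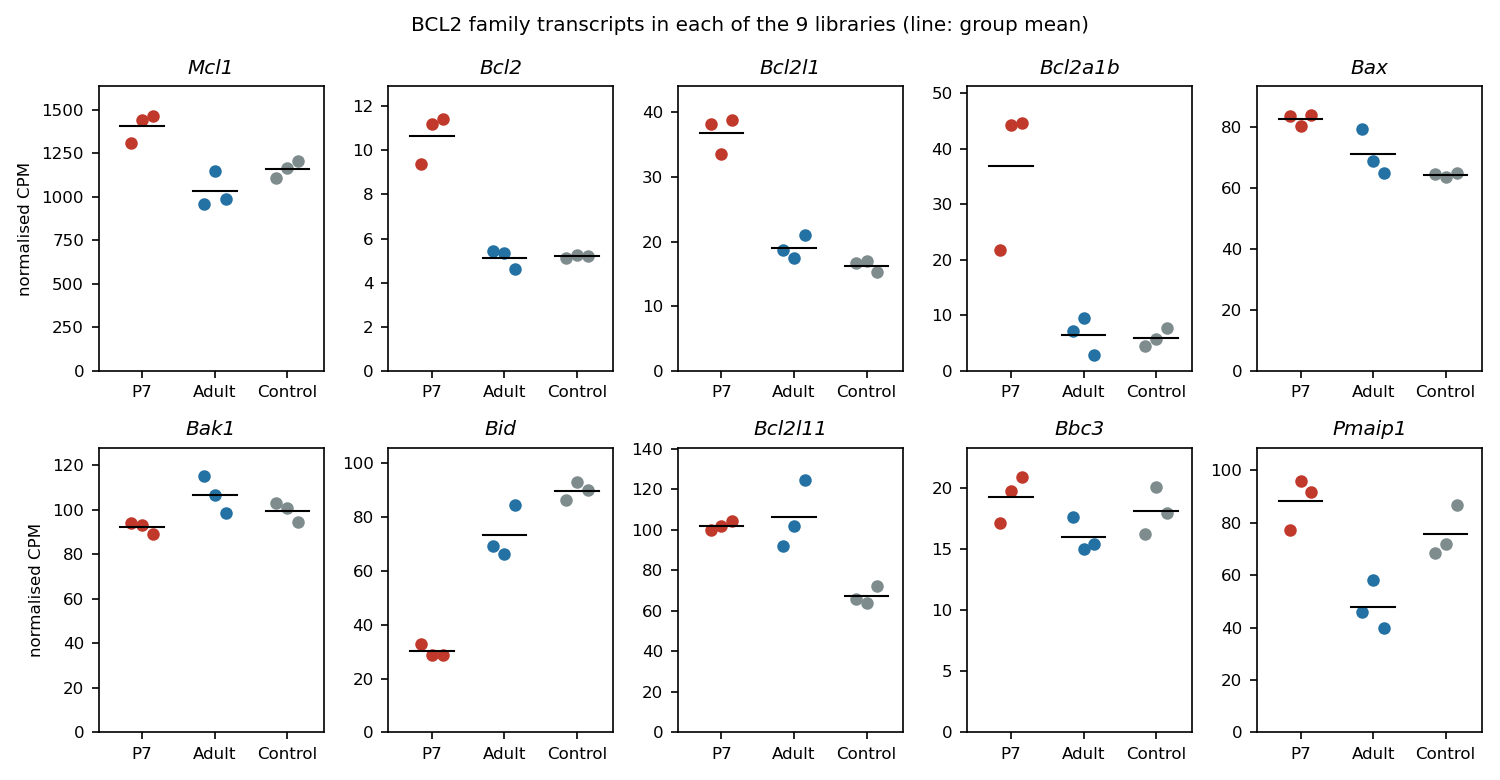
Normalised CPM (y axis, linear and starting at 0) of the 10 BCL2 family members in each of the 9 libraries; points are libraries and the line is the group mean of P7 platelet (P7), adult platelet (Adult) and control libraries. Bcl2, Bcl2l1 and Bcl2a1b stand highest with P7 platelets, Bid stands lowest there at 28.6 to 32.8, and Bcl2l11 is high with both kinds of platelets.

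Total counts ran between 29687341 and 37065564 per library. All 10 monocyte markers (among them Csf1r, Ccr2 and Lyz2) were measured, and together they held 25668 to 30679 CPM of the library total with P7 platelets, 27429 to 31914 with adult platelets and 25549 to 28208 in control. On the TMM scale used for the members that sum was 29125 to 33973, 26085 to 30779 and 23984 to 25655 CPM, so the P7 platelet libraries were above control. With P7 platelets 8 of the 10 monocyte markers were called higher and 1 lower against control (median log2 fold change 0.64). With adult platelets 4 were called higher and 0 lower (median 0.23). The part of this shift in the rises of other genes given below was not tested. RNA of platelets and red cells moved with the groups. The sum of 13 platelet markers was 1043 to 1195 CPM with P7 platelets, 570 to 972 with adult platelets and 24.6 to 27.8 in control libraries, where 2 of the 13 had no count. The sum of 9 erythroid markers (globins, Alas2 and others) was 55192, 43682 and 49176 CPM in the P7 platelet libraries, against 1803, 643 and 499 in the adult platelet libraries and 12.9, 11.2 and 14.3 in the control libraries, and all 9 had counts in every group. Each pair of groups was separate in both sums (exact two-sided permutation p = 0.1, the smallest that 3 against 3 libraries allow). Neutrophil markers held 231 to 245, 268 to 513 and 266 to 279 CPM, T and NK cell markers 16.0 to 16.7, 12.7 to 28.8 and 8.69 to 11.2 CPM, and B and plasma cell markers 264 to 912, 254 to 1149 and 350 to 1116 CPM (P7, adult, control). The spread of the last list followed Igkc, an immunoglobulin transcript, at 606 CPM in P7 platelet replicate 1, 772 and 409.5 in adult platelet replicates 1 and 3 and 668 in control replicate 1, against 123 to 172 in the other 5 libraries. The part that RNA of platelets, red cells or other cells has in the values of the BCL2 family was not tested, and in such bulk libraries a change in the number of cells and a change in RNA per cell cannot be told apart.

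Mcl1, whose pro-survival protein is short-lived, lies on chromosome 3 (95658788 to 95663176, forward strand, GENCODE M21 on GRCm38). It stood at 1313, 1441 and 1464 normalised CPM with P7 platelets, at 958, 1151 and 987 with adult platelets and at 1108, 1168 and 1205 in control libraries. All 3 P7 platelet libraries were above the other 6, and the adult platelet and control libraries overlapped. The log2 fold change against control was 0.28 ± 0.08 (SE, adjusted p = 0.0133) with P7 platelets and -0.17 ± 0.08 (adjusted p = 0.148) with adult platelets, and P7 exceeded adult platelets by 0.45 ± 0.08 (adjusted p = 0.0021). The call against control was lost with upper-quartile scaling (0.18, adjusted p = 0.0636), under which the median of all genes stood at -0.115 in place of -0.014, and on leaving out P7 platelet replicate 3 (adjusted p = 0.0504) or the first control replicate (adjusted p = 0.0505). Without adult platelet replicate 2, Mcl1 was called lower with adult platelets (-0.25, adjusted p = 0.0303). The P7 rise of Mcl1 was smaller than the median of 0.64 for the monocyte markers, and the part of their shift in it was not tested.

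Bcl2, the founding member of the family (chromosome 1, 106538178 to 106714274, reverse strand), had few reads, 156 to 355 per library. Its levels were 9.37, 11.2 and 11.4 normalised CPM with P7 platelets, 5.42, 5.35 and 4.63 with adult platelets and 5.10, 5.28 and 5.19 in control libraries. The P7 platelet libraries lay apart above the rest, and the adult platelet libraries lay on both sides of the control libraries. Against control the log2 fold change was 1.04 ± 0.10 (adjusted p = 2.84e-05) with P7 platelets and -0.02 ± 0.10 (95% interval -0.25 to 0.22, adjusted p = 0.925) with adult platelets, and the difference between P7 and adult platelets was 1.05 ± 0.10 (adjusted p = 0.000125). Each of the 19 alternatives kept both calls of Bcl2. An antisense transcript, D630008O14Rik, shares 558 exonic bases with Bcl2 on the other strand; the libraries were strand-marked, but the strand setting of the counting is not given.

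Bcl2l1, which encodes BCL-XL (chromosome 2, 152780668 to 152831728, reverse strand), is also a transcript of platelets, whose life span BCL-XL sets, and of maturing red cells. It stood at 38.1, 33.5 and 38.9 normalised CPM with P7 platelets, at 18.7, 17.5 and 21.02 with adult platelets and at 16.6, 17.0 and 15.3 in control libraries. No pair of groups overlapped, and the P7 platelet libraries were well above both others. The log2 fold change against control was 1.18 ± 0.09 (adjusted p = 5.61e-06) with P7 platelets and 0.23 ± 0.09 (95% interval 0.03 to 0.42, adjusted p = 0.0826) with adult platelets. Of 19 alternatives, leaving out adult platelet replicate 2 made the adult value pass (0.29, adjusted p = 0.0435). P7 exceeded adult platelets by 0.95 ± 0.09 (adjusted p = 7.82e-05). The order of the 3 groups in Bcl2l1 was that of their erythroid and platelet marker sums. Leaving platelet, erythroid and mitochondrial transcripts out of the library sizes left the P7 value at 1.18, which bears on the scaling and not on the source of Bcl2l1 reads, and that source was not tested.

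**Figure D2:**
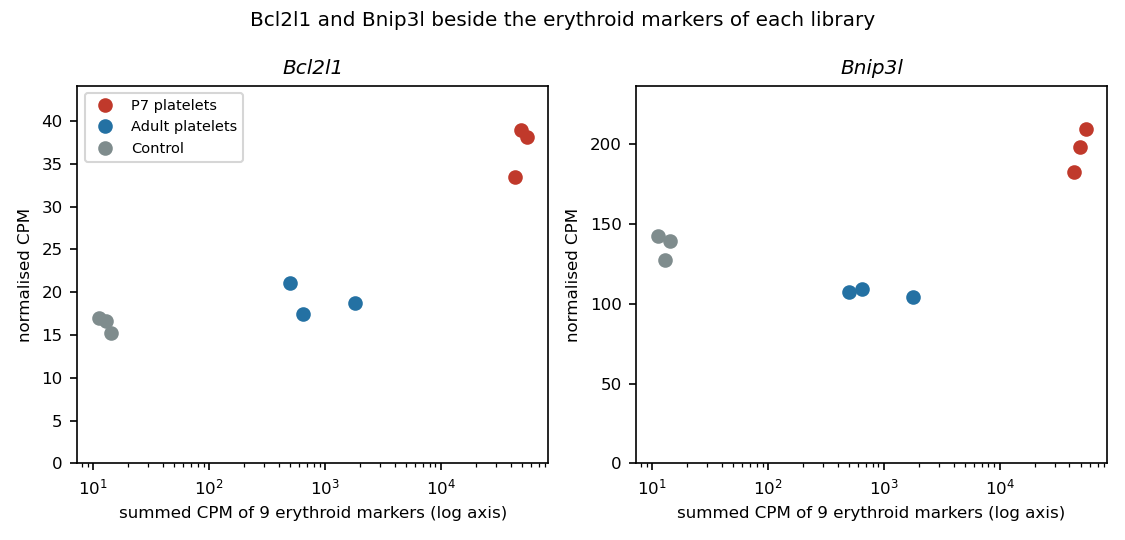
Normalised CPM of Bcl2l1 and Bnip3l (y axes, linear from 0) beside the summed CPM of 9 erythroid markers (x axis, log scale), with each point a library of the P7 platelet, adult platelet or control group. The 3 groups form separate clusters on the x axis; Bcl2l1 is highest at the right, and Bnip3l is lowest in the adult platelet libraries, in the middle.

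Bcl2a1b is a copy of the mouse A1 gene, which exists as the near-identical genes Bcl2a1a, Bcl2a1b and Bcl2a1d and the more divergent Bcl2a1c, all on chromosome 9. It lies at 89199209 to 89207827 on the forward strand, and of its 75-base stretches, the read length used, 68.4% also occur in other genes, so reads may be split or lost between the copies. Their promoters were near copies too. The 250 bases before the RefSeq start site (GRCm38.p6) are given 5′ to 3′. RefSeq and GENCODE M21 place the starts differently, and each window reaches into the gene as GENCODE M21 places it. Shared reads tie the counts of the copies together, and a part of the promoters in their values was not tested. Capitals in Bcl2a1a and Bcl2a1d mark bases that differ from Bcl2a1b in the alignment, and capitals in Bcl2a1b mark bases that differ from or are missing in Bcl2a1d.
Bcl2a1a, chr9:88956670-88956919, forward strand: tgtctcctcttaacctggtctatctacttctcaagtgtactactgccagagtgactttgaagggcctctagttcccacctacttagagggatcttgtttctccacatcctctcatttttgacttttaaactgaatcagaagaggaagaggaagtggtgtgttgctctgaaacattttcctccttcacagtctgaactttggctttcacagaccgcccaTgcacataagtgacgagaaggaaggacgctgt
Bcl2a1b, chr9:89199023-89199272, forward strand: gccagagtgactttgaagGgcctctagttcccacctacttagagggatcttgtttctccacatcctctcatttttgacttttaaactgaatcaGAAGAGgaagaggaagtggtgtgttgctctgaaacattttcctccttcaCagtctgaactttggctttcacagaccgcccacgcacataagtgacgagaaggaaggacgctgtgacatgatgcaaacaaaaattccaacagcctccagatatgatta
Bcl2a1d, chr9:88731851-88732100, reverse strand: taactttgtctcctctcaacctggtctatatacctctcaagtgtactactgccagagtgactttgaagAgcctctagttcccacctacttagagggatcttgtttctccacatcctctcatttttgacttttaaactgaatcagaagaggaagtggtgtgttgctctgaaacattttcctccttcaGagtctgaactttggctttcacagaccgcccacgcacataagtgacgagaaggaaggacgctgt
The Bcl2a1a and Bcl2a1b windows were 99.5% identical and the Bcl2a1b and Bcl2a1d windows 96.1% identical over 206 aligned bases, and Bcl2a1a and Bcl2a1d 95.2% over 250 bases. The Bcl2a1c window, not printed, was 95.7% identical to that of Bcl2a1b over 184 bases. Over 140 bases it was 94.3% identical to that of Bcl2a1a and 90.7% to that of Bcl2a1d.

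Against control the A1 copies had the largest rises of the family genes tested with P7 platelets. Bcl2a1b stood at 21.9, 44.3 and 44.6 normalised CPM with P7 platelets, at 7.16, 9.47 and 2.91 with adult platelets and at 4.53, 5.67 and 7.65 in control libraries. Every P7 platelet library was above every other, though replicate 1 lay well below the other P7 platelet libraries, and the adult platelet libraries spread around the control libraries. Against control the log2 fold change was 2.63 ± 0.41 (6.20-fold, adjusted p = 0.000441) with P7 platelets and 0.13 ± 0.42 (95% interval -0.82 to 1.08, adjusted p = 0.846) with adult platelets, and P7 exceeded adult platelets by 2.5 ± 0.41 (adjusted p = 0.00139). The low P7 library, replicate 1, and the lowest adult library, replicate 3, are among the 4 libraries with high Igkc; with a term for those libraries the same log2 fold changes were 2.6, 0.38 and 2.22.

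Bcl2a1a stood at 14.4, 23.7 and 27.8 normalised CPM with P7 platelets, 3.92, 5.52 and 2.08 with adult platelets and 2.23, 2.05 and 3.04 in control libraries. Bcl2a1d stood at 24.8, 46.4 and 48.8, at 9.43, 13.1 and 4.48, and at 6.35, 8.77 and 11.5 in the same groups. Both were separate and higher with P7 platelets and showed the same low replicate 1 (log2 fold change against control 3.17 ± 0.36 and 2.17 ± 0.38, adjusted p = 6.06e-05 and 0.00098), and neither passed with adult platelets (0.66 ± 0.37 and 0.02 ± 0.39), though Bcl2a1a did with the Igkc term (0.85, adjusted p = 0.0354). Bcl2a1c, at 0.736 to 1.45 CPM with P7 platelets, 0.0593 to 0.218 with adult platelets and 0.0525 to 0.253 in control, rose by 2.95 ± 0.55 (adjusted p = 0.00132) on 2 to 45 reads per library. Since reads of the 3 close copies cannot be assigned with certainty, their counts were also added up and fitted as a single gene, a choice made after seeing the data. Reads that were dropped or counted to Gm29094 are not in that sum. The sum was 61.0, 114 and 121 normalised CPM with P7 platelets, 20.5, 28.1 and 9.46 with adult platelets and 13.1, 16.5 and 22.2 in control, and its log2 fold changes were 2.52 ± 0.39 (adjusted p = 0.000445) with P7 platelets, 0.17 ± 0.39 (adjusted p = 0.788) with adult platelets and 2.35 ± 0.39 (adjusted p = 0.00149) between them.

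**Figure D3:**
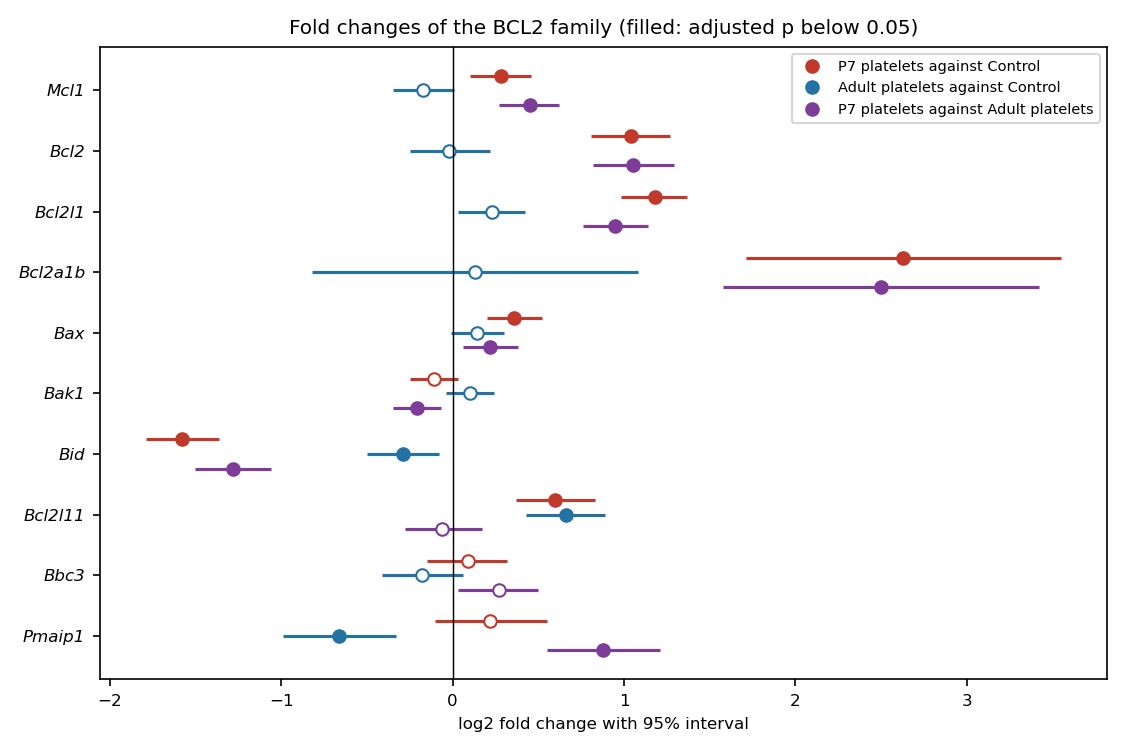
Log2 fold changes (x axis) with 95% intervals of the 10 members for P7 platelets against control, adult platelets against control and P7 against adult platelets; filled points passed an adjusted p of 0.05. Bcl2a1b has the largest rise (2.63) and the widest interval, Bid the largest fall (-1.58), and Bcl2l11 rises with both kinds of platelets.

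Of the effectors, Bax rose with P7 platelets and Bak1 did not pass against control. Bax (chromosome 7, 45461697 to 45466898, reverse strand) stood at 83.5, 80.3 and 83.8 normalised CPM with P7 platelets, 79.4, 68.8 and 64.7 with adult platelets and 64.4, 63.4 and 64.9 in control libraries. The P7 platelet libraries were above all others, and the lowest adult platelet library lay within the control range. Bax rose by 0.36 ± 0.07 on the log2 scale (adjusted p = 0.0017) with P7 platelets, and its value with adult platelets was 0.14 ± 0.07 (adjusted p = 0.163). The P7 value too was below the median of 0.64 for the monocyte markers. The difference between P7 and adult platelets, 0.22 ± 0.07 (adjusted p = 0.0341), was lost in 10 of 19 alternatives (adjusted p up to 0.126).

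Bak1 (chromosome 17, 27019810 to 27029009, reverse strand) stood at 94.1, 93.4 and 89.3 normalised CPM with P7 platelets, 115, 107 and 98.7 with adult platelets and 103, 101 and 94.8 in control libraries. The P7 platelet libraries lay just below all others, and adult platelet and control libraries overlapped. Against control neither value passed, at -0.11 ± 0.06 (95% interval -0.25 to 0.03, adjusted p = 0.163) with P7 platelets and 0.10 ± 0.06 (adjusted p = 0.262) with adult platelets. Bak1 was lower with P7 than with adult platelets (-0.21 ± 0.06, adjusted p = 0.0244), a call that 5 of 19 alternatives lost (adjusted p up to 0.0912). With upper-quartile scaling Bak1 was also called lower against control (-0.21, adjusted p = 0.0173). Bax and Bak1 thus had opposite signs between P7 and adult platelets, each at less than 0.3 on the log2 scale.

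Bid, a BH3-only member, had the smallest p of the family with P7 platelets against control. Bid encodes the protein that caspase 8 cuts to carry a death receptor signal to mitochondria, and lies on chromosome 6 (120891930 to 120916853, reverse strand). Its levels were 32.8, 28.8 and 28.6 normalised CPM with P7 platelets, 69.1, 66.1 and 84.5 with adult platelets and 86.2, 92.9 and 90.1 in control libraries. No groups overlapped: P7 platelet libraries were lowest by a wide gap, and the highest adult platelet library came just under the lowest control library. Bid fell by 1.58 ± 0.10 on the log2 scale (adjusted p = 2.20e-06) with P7 platelets and was 1.28 ± 0.10 lower than with adult platelets (log2 fold change -1.28, adjusted p = 3.20e-05). The smaller fall with adult platelets, -0.29 ± 0.09 (adjusted p = 0.0443), was lost in 8 of 19 alternatives: in the fit of only the groups compared and without P7 platelet replicate 2 or 3, adult platelet replicate 1 or 2, or any control replicate (adjusted p = 0.0604 to 0.135). Bid shares 628 exonic bases with Bcl2l13 on the other strand; Bcl2l13 rose by 0.25 ± 0.06 with P7 platelets.

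Bcl2l11 (chromosome 2, 128126038 to 128162547, forward strand) stood at 99.99, 102 and 104 normalised CPM with P7 platelets, 91.9, 102 and 125 with adult platelets and 65.7, 63.9 and 72.2 in control libraries. All 6 libraries with platelets were above the 3 control libraries, and the adult platelet libraries spread on both sides of the P7 platelet ones. It rose by 0.60 ± 0.10 (adjusted p = 0.000721) with P7 and by 0.66 ± 0.10 (adjusted p = 0.00183) with adult platelets. The monocyte markers had medians of 0.64 with P7 and 0.23 with adult platelets, so only the adult value of Bcl2l11 was above theirs. The difference between P7 and adult platelets was -0.06 ± 0.10, with a 95% interval of -0.28 to 0.17 (adjusted p = 0.682). In the fit of all libraries no other member rose with adult platelets, and both rises passed under each of the 19 alternatives.

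Pmaip1, on chromosome 18, encodes NOXA, the BH3-only protein that binds MCL1 and A1. It stood at 77.4, 96.0 and 91.6 normalised CPM with P7 platelets, 46.0, 58.2 and 39.8 with adult platelets and 68.5, 72.0 and 86.7 in control libraries. The adult platelet libraries lay below all others, and P7 platelet and control libraries overlapped. Adult platelets gave a fall of 0.66 ± 0.15 (log2 fold change -0.66, adjusted p = 0.0103), P7 platelets a value of 0.22 ± 0.14 (95% interval -0.10 to 0.55, adjusted p = 0.213), and P7 exceeded adult platelets by 0.88 ± 0.15 (adjusted p = 0.0015). With the term for high Igkc the P7 value passed (0.22, adjusted p = 0.0437).

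Bbc3 (chromosome 7, 16308393 to 16318205, forward strand), which encodes PUMA, the p53-induced BH3-only protein, passed in no comparison. It stood at 17.1, 19.7 and 20.9 normalised CPM with P7 platelets, 17.6, 15.05 and 15.4 with adult platelets and 16.2, 20.1 and 18.0 in control libraries. All groups overlapped. The log2 fold changes against control were 0.09 ± 0.10 (95% interval -0.15 to 0.32, adjusted p = 0.495) with P7 platelets, where upper-quartile scaling turned the sign (-0.01), and -0.18 ± 0.10 (-0.41 to 0.06, adjusted p = 0.241) with adult platelets. Between P7 and adult platelets it was 0.27 ± 0.10 (adjusted p = 0.0722), which passed on leaving out replicate 1 of the P7 (adjusted p = 0.0305) or of the adult platelets (adjusted p = 0.0434). Bax, Bbc3 and Pmaip1 are among the known p53 targets, and side by side their values with P7 platelets were 0.36, 0.09 and 0.22. They do not stand for p53 targets as a whole, which were not examined as a set here.

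Many survival genes of myeloid cells are known targets of the transcription factor NF-kB, so the promoter windows were searched on both strands for its consensus. It was found in 2 of the 14 promoters that RefSeq lists for 9 of the members, and in 7.25% of 32851 promoters of the same length. The promoters were a listed promoter of Bcl2l1, which rose with P7 platelets, and a listed promoter of Bbc3, which did not pass. They are given 5′ to 3′ (RefSeq, GRCm38.p6) with the match in capitals, overlapping matches of both strands joined. Both windows lie within the gene spans given above.
Bcl2l1, chr2:152830718-152830967, reverse strand: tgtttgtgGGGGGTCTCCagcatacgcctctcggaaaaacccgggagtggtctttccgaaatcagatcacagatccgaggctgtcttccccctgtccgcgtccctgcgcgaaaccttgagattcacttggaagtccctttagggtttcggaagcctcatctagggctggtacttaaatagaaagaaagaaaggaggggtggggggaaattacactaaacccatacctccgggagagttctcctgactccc
Bbc3, chr7:16309333-16309582, forward strand: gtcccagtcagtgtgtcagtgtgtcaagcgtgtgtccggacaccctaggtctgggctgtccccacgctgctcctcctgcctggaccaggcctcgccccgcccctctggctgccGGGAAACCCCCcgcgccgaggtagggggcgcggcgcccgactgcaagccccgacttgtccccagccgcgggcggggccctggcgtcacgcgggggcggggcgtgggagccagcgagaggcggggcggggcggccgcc
The match begins at position -242 of the start site in Bcl2l1 and at -137 in Bbc3. The interferon response core (GAAA, any 2 bases, GAAA) was in 0 of the 14 windows (2.98% of all promoters), and TATAAA in 0 (12.4%). The E-box CACGTG was in a window of Bax and a window of Bbc3 (6.02%), but not in the Bbc3 window printed above. The Bcl2a1a, Bcl2a1b and Bcl2a1d windows printed above hold no match to these letters.

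Levels of different genes were compared as normalised CPM per kilobase of merged exons. On that scale Mcl1 had 411 ± 23.8 with P7 platelets, 302 ± 30.5 with adult platelets and 339 ± 14.4 in control libraries (SD, n = 3 each), above every other member in every library. In P7 platelet libraries Bax (52.4), Bcl2a1b (45.2) and Bak1 (38.3) came next and overlapped with their neighbours, then Pmaip1 (32.3) and Bcl2l11 (12.7), then Bbc3 (9.06), Bid (8.47) and Bcl2l1 (8.03), again overlapping with their neighbours, and Bcl2 (1.16). In adult platelet libraries the order was Bax (45.0) and Bak1 (44.4), Bid (20.6), Pmaip1 (17.6), Bcl2l11 (13.2), Bcl2a1b (7.97) and Bbc3 (7.54), Bcl2l1 (4.16) and Bcl2 (0.560); from Bid to Bbc3 each overlapped with the next. In control libraries it was Bak1 (41.3) and Bax (40.8), which overlapped, Pmaip1 (27.7) and Bid (25.3), which overlapped, then Bbc3 (8.52), Bcl2l11 (8.38) and Bcl2a1b (7.28), each overlapping with the next, Bcl2l1 (3.55) and Bcl2 (0.567). Bcl2a1b thus ranked 3 of 10 with P7 platelets, 7 with adult platelets and 8 in control, and Bid ranked 8, 4 and 5. Of the 75-base stretches of Bcl2a1b, 68.4% occur in other genes, and how such reads were counted is not given. The level and rank of Bcl2a1b beside other genes are thus uncertain.

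**Figure D4:**
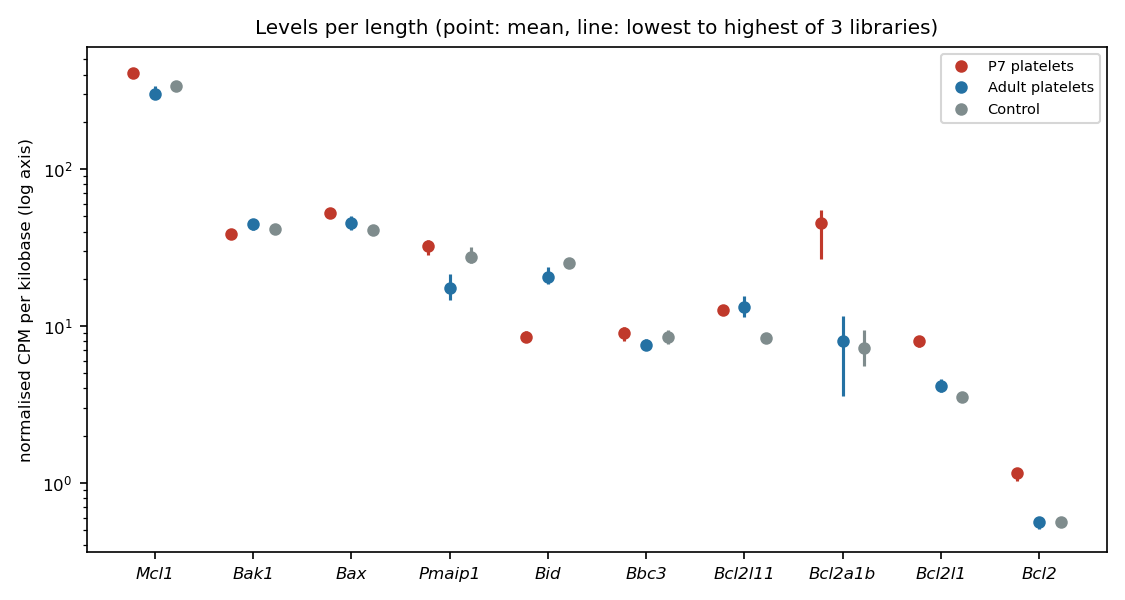
Levels of the 10 members in normalised CPM per kilobase of merged exons (y axis, log scale), with points at the group mean and lines from the lowest to the highest of 3 libraries in the P7 platelet, adult platelet and control groups. Mcl1 lies far above the rest in every group, and Bcl2a1b and Bid change rank most between P7 platelet and control libraries.

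Of the summed per-kilobase level of the 4 pro-survival members, Mcl1 made up 91.4, 87.0 and 86.9% in P7 platelet libraries, against 95.4, 95.5 and 97.1% in adult platelet libraries and 97.1, 96.8 and 96.4% in control libraries. Bcl2a1b made up 6.36, 11.2 and 11.1%, against 2.98, 3.28 and 1.20% and 1.66, 1.97 and 2.56%. The P7 platelet libraries were lower in the Mcl1 share and higher in the Bcl2a1b share than all others. These shares count A1 through Bcl2a1b alone and leave out Bcl2a1a and Bcl2a1d. Per kilobase these stood at 26.8 and 46.3 with P7 platelets, 4.69 and 10.4 with adult platelets and 2.98 and 10.3 in control. Counting them too would raise the A1 share and lower that of Mcl1 in every group. The shares are also uncertain because reads that Bcl2a1b has in common with other genes may be split or lost. The ratio of Bid to Bcl2l1 on the per-kilobase scale was 1.11, 1.11 and 0.952 with P7 platelets, 4.77, 4.88 and 5.19 with adult platelets and 6.69, 7.07 and 7.62 in control libraries, without overlap between any groups.

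Beyond the 10, 16 other genes of the family were listed, of which 11 could be tested. With P7 platelets 6 rose and 2 fell (median log2 fold change 0.22, beside -0.01 for all genes), which is 72.7% called beside 59.2% of all genes. With adult platelets 1, Bnip3l, fell and the other 10 did not pass (9.09%, beside 26.4%), while the Igkc term called 3. Between P7 and adult platelets 5 were higher and 2 lower (median 0.23), which is 63.6% beside 39.6%. Bcl2a1a and Bcl2a1d, counted as separate genes here, share 55.2 and 67.6% of their 75-base stretches with other genes, chiefly A1 copies. Their calls are thus not independent of each other or of that of Bcl2a1b. Besides the A1 copies the risers were Bcl2l2, Bcl2l13 and Bnip3l. Bcl2l2, which encodes the pro-survival BCL-W, stood at 34.5, 33.9 and 34.1 normalised CPM with P7 platelets, 30.5, 29.5 and 27.8 with adult platelets and 29.5, 29.6 and 28.8 in control, a rise of 0.22 ± 0.05 (adjusted p = 0.003) with P7 platelets that was lost with upper-quartile scaling (adjusted p = 0.0526).

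Bmf, another BH3-only gene, fell with P7 platelets. It stood at 53.8, 40.1 and 36.6 normalised CPM with P7 platelets, 91.7, 63.8 and 63.7 with adult platelets and 90.2, 94.6 and 93.3 in control libraries. The P7 platelet libraries were lowest without overlap, and 1 adult platelet library reached the control range. The log2 fold change was -1.09 ± 0.17 (adjusted p = 0.000424) with P7 platelets, -0.34 ± 0.16 (adjusted p = 0.154) with adult platelets and -0.75 ± 0.17 (adjusted p = 0.00683) between them. Bmf was also called lower with adult platelets without adult platelet replicate 1 (-0.54, adjusted p = 0.0276) and with the replicate block (-0.37, adjusted p = 0.0464). Bcl2l12 fell as well with P7 platelets (-0.50 ± 0.14, adjusted p = 0.0115). Bad (-0.18 ± 0.11), Bcl2l14 (-0.32 ± 0.34) and Bnip3 (-0.23 ± 0.24) did not pass there, though Bad passed with the Igkc term (adjusted p = 0.044) and Bnip3 without P7 platelet replicate 1 (adjusted p = 0.0163).

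Bnip3l, which encodes the mitophagy receptor NIX that clears mitochondria from maturing red cells, moved in opposite directions with the 2 kinds of platelets. It stood at 209.9, 183 and 198 normalised CPM with P7 platelets, 104, 109 and 108 with adult platelets and 127, 143 and 139 in control libraries. P7 platelet libraries were highest and adult platelet libraries lowest, with no overlap. The log2 fold change was 0.53 ± 0.06 (adjusted p = 9.72e-05) with P7 platelets, -0.35 ± 0.06 (adjusted p = 0.00461) with adult platelets and 0.88 ± 0.06 (adjusted p = 2.83e-05) between them. A pseudogene, Bnip3l-ps, shares 16.9% of its 75-base stretches. The erythroid marker sums given above were higher than control with both kinds of platelets, and by far the highest with P7 platelets. The source of Bnip3l reads was not tested.

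The remaining 5 family genes had too few reads for a test. Bcl2l10 and Hrk had 0 counts in all 9 libraries, which at a floor of 3 of 304304525 counts allows up to 0.00986 CPM (counting error only). Bok had 1 count, Bik 10 and Bcl2l15 22 over all libraries. BOK is the remaining effector of the BAX kind.

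Most transcripts listed under apoptosome and caspases were lower with P7 platelets than in control. The list is not confined to steps downstream of BAX and BAK1, as it also holds Casp8, Vdac1 and Vdac2. Of 15 genes, all tested, 2 rose and 10 fell with P7 platelets (median -0.33), 2 rose and 4 fell with adult platelets (median -0.17), and 1 was higher and 8 were lower with P7 than with adult platelets (median -0.29), beside medians of all genes of -0.01 with P7 platelets and -0.02 between P7 and adult platelets. The shares called, 80.0, 40.0 and 60.0%, stood beside 59.2, 26.4 and 39.6% of all genes. Without control replicate 2 the 6 calls with adult platelets dropped to 2. Casp2, which encodes an initiator caspase, fell to 42.2 ± 1.69 normalised CPM with P7 platelets and to 71.3 ± 3.03 with adult platelets, against 84.4 ± 4.83 in control (log2 fold change -1.0 ± 0.06 and -0.24 ± 0.06, adjusted p = 1.83e-06 and 0.0141). The Casp2 call with adult platelets was lost without control replicate 2 (adjusted p = 0.0624).

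Casp9, the caspase that the apoptosome activates, fell by 0.46 ± 0.06 with P7 platelets (log2 fold change -0.46, adjusted p = 0.00023), as did Apaf1, its scaffold (-0.36 ± 0.07, adjusted p = 0.00208). Dffb, the nuclease that cuts DNA in dying cells, fell with both kinds of platelets (-0.83 ± 0.07 and -0.49 ± 0.07), and Parp1, a caspase substrate in DNA repair, with P7 platelets (-0.66 ± 0.07). Cycs, which encodes cytochrome c, rose with P7 platelets (0.31 ± 0.06, adjusted p = 0.00223), as did Vdac2, the outer-membrane channel that binds BAK1 (0.26 ± 0.04, adjusted p = 0.000665). With adult platelets Cycs had 0.21 ± 0.06 (adjusted p = 0.037), a call lost in 9 alternatives, among them each that left out a control replicate (adjusted p = 0.0511 to 0.104). Casp8, which cuts BID, stood at 136 ± 9.07 normalised CPM with P7 platelets, 157 ± 9.02 with adult platelets and 129.5 ± 2.7 in control, and it rose with adult platelets (0.28 ± 0.06, adjusted p = 0.0107), a call lost without control replicate 2 (adjusted p = 0.0518).

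Of 12 listed death receptor genes 11 were tested. With P7 platelets 5 rose and 2 fell (median 0.31), with adult platelets 2 rose and the other 9 did not pass (median 0.16), and between them 5 were higher and 1 lower (median 0.08). The shares called, 63.6, 18.2 and 54.5%, stood beside 59.2, 26.4 and 39.6% of all genes, so the share with P7 platelets lies near that of all genes. Fas, the receptor of the Fas ligand, stood at 179, 194 and 192 normalised CPM with P7 platelets, 74.4, 112 and 48.3 with adult platelets and 63.8, 49.3 and 55.6 in control (1.74 ± 0.25 with P7 platelets, adjusted p = 0.000264). Adult platelet libraries overlapped with control in Fas (0.48 ± 0.24, adjusted p = 0.181) and passed without adult platelet replicate 3 (adjusted p = 0.014). Cflar, which encodes the caspase 8 inhibitor c-FLIP, averaged 495 ± 54.8 normalised CPM with P7 platelets, 279.7 ± 56.6 with adult platelets and 254 ± 17.4 in control (0.96 ± 0.14 with P7 platelets, adjusted p = 0.00026).

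Traf1, an adaptor of TNF receptors, rose with both kinds of platelets (2.33 ± 0.19 and 0.90 ± 0.19, adjusted p = 1.14e-05 and 0.0078), as did Tnfrsf1b, a TNF receptor gene (1.05 ± 0.11 and 0.42 ± 0.11, adjusted p = 3.47e-05 and 0.0181), whose call with adult platelets was lost without control replicate 1 or 2 (adjusted p = 0.061 and 0.0681). Traf2 rose with P7 platelets (0.56 ± 0.07, adjusted p = 0.000116), and Ripk1, the kinase between survival and death at these receptors, fell (-0.20 ± 0.05, adjusted p = 0.00604).

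Among 12 listed inhibitors of apoptosis and their antagonists 11 were tested, of which 3 rose and 3 fell with P7 platelets (median 0.08), 1 rose and 1 fell with adult platelets, and 2 were higher and 3 lower with P7 than with adult platelets. The shares called, 54.5, 18.2 and 45.5%, lie near or below those of all genes in the first 2 comparisons (59.2 and 26.4%) and near the 39.6% of the last. The 5 calls between P7 and adult platelets dropped to 3 without P7 platelet replicate 2 and to 2 without P7 platelet replicate 3, where Birc2, Naip1 and Naip6 were among those lost. Birc3 and Birc2, which encode the ubiquitin ligases cIAP2 and cIAP1 of the TNF receptor complex, rose with P7 platelets (1.3 ± 0.17 and 0.51 ± 0.08, adjusted p = 0.000157 and 0.000493). Birc3 stood at 446, 508 and 518 normalised CPM with P7 platelets, 235, 336 and 195 with adult platelets and 200.3, 187 and 212 in control. Xiap, the caspase inhibitor, had 0.08 ± 0.08 (adjusted p = 0.376). The other called genes were of the Naip family, near copies of each other that sense bacterial proteins and whose reads may be split: Naip2 rose with both (0.68 ± 0.08 and 0.74 ± 0.08), Naip6 fell with both (-0.79 ± 0.10 and -0.42 ± 0.10, the adult call lost without control replicate 2, adjusted p = 0.05002), and Naip1 (-1.03 ± 0.21) and Naip5 (-0.51 ± 0.09) fell with P7 platelets.

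Of 8 genes listed under the turnover of the MCL1 protein 7 were tested. Of these 1 rose and 2 fell with P7 platelets, 1 rose with adult platelets and the other 6 did not pass, and 1 was higher and 1 lower between them. The shares called, 42.9, 14.3 and 28.6%, were below those of all genes (59.2, 26.4 and 39.6%). Trib1, a pseudokinase that brings the ligase COP1 to its targets, stood at 177, 191 and 200.2 normalised CPM with P7 platelets, 107, 135 and 109 with adult platelets and 55.4, 57.9 and 72.2 in control libraries, and no groups overlapped (1.62 ± 0.12 and 0.92 ± 0.12, adjusted p = 5.82e-06 and 0.000699). Whether MCL1 is among those targets was not tested, so the rise of Trib1 is not read as a change in MCL1 turnover. Of the MCL1 ubiquitin ligases, Btrc (-0.39 ± 0.09, adjusted p = 0.00328) and Fbxw7 (-0.21 ± 0.06, adjusted p = 0.0157) fell with P7 platelets, and the Fbxw7 call was lost on leaving out P7 platelet replicate 2 (adjusted p = 0.0651) or the third control replicate (adjusted p = 0.0669). Huwe1, the ligase also known as MULE, and the deubiquitinase gene Usp9x did not pass (0.25 ± 0.15 and 0.20 ± 0.14, adjusted p = 0.176 and 0.223), but with the replicate number as a block they did (adjusted p = 0.0442 and 0.0438). Gsk3b, whose kinase marks MCL1 for removal, had -0.06 ± 0.07 (adjusted p = 0.459).

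**Figure D5:**
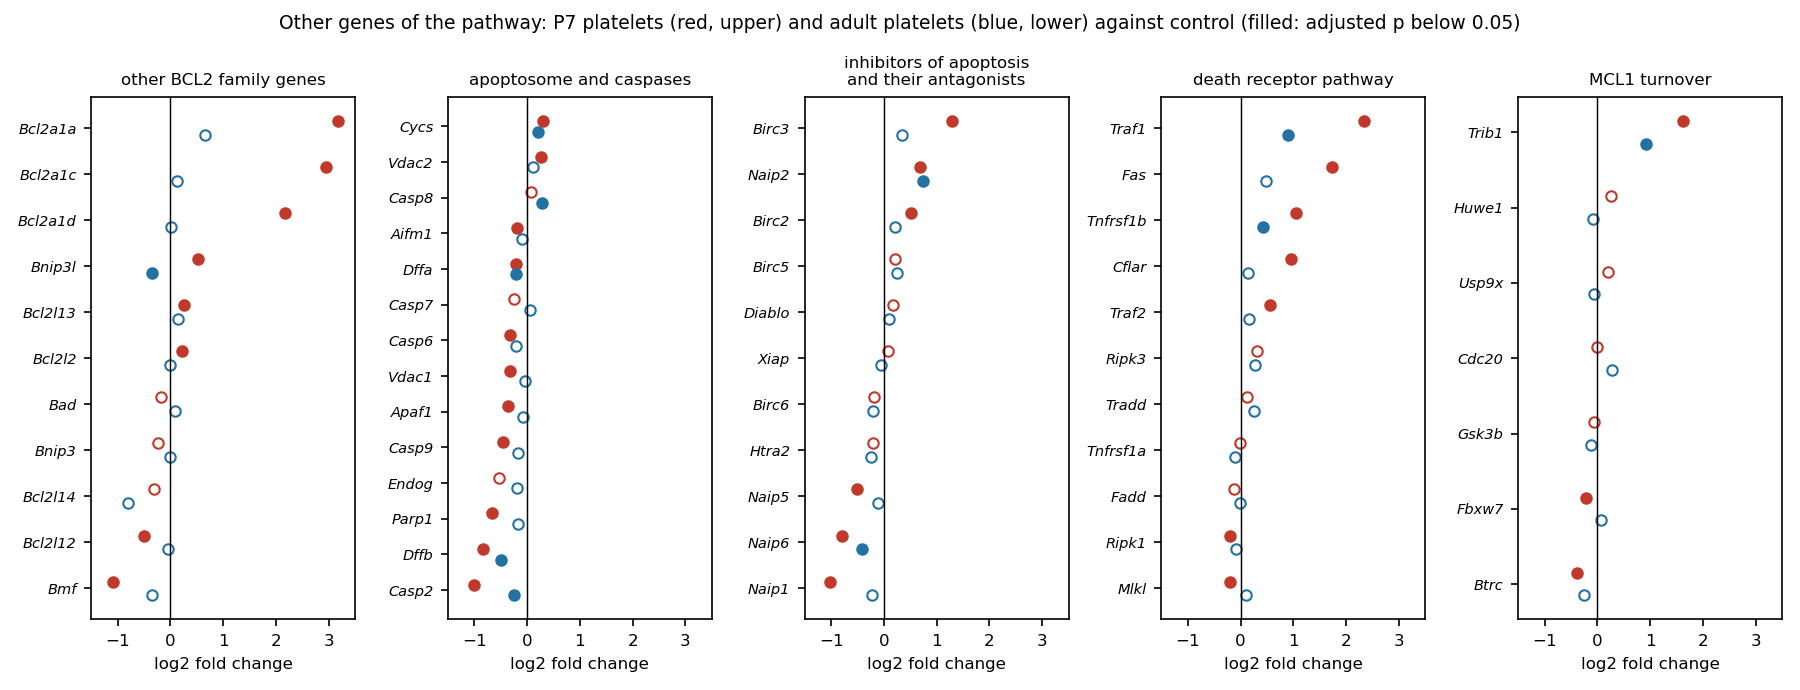
Log2 fold changes against control (x axis) of the tested genes in 5 lists around the BCL2 family, with P7 platelets in red above adult platelets in blue, filled where the adjusted p was below 0.05. Most of the apoptosome and caspase genes drawn (1 of the list is left out) lie called to the left with P7 platelets, and the A1 copies, Traf1, Fas, Trib1 and Birc3 reach furthest to the right in their lists.

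Bid and Bcl2l1 were the members with the smallest p with P7 platelets against control. For each, the genes with the most similar course over the 9 libraries were found among 8323 well-expressed genes. They were those with the smallest root-mean-square difference of log2 CPM centred on each gene's mean. Nearest to Bid were Ssh2 (0.085), Arrdc3 (0.095) and Abcg1 (0.098). Ssh2, for example, averaged 165 ± 25.5 normalised CPM with P7 platelets, 396 ± 40.6 with adult platelets and 472 ± 43.6 in control. Nearest to Bcl2l1 were Rnf10 (0.103), Gabarapl2 (0.108) and Psme3 (0.111), and Rnf10 averaged 525 ± 38.7, 282 ± 9.75 and 254 ± 1.23 in the same groups. This likeness describes 9 libraries in 3 groups and is no independent test.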

How the data were processed

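Monocyte mRNA was sequenced as 75 nt single reads from strand-marked libraries made of 100 ng RNA, per the labels' protocols. Each deposited file lists, for 55367 gene symbols, unnormalised read counts of a library. Tools in the submitters' processing notes, listed without roles, are STAR 2.7.6a, featureCounts, Subread 2.0.1, Salmon 1.3.0 and fastp 0.20.1. The sources used here give neither build and annotation nor the strand setting of the counting. Positions and exon lengths are those of GENCODE M21 (GRCm38), whose gene names 53365 symbols match and 2002 do not.

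Counts were fitted with edgeR 4.0.16 (R 4.3.3) over all 9 libraries with 1 mean per group, TMM scaling (factors 0.882 to 1.10) and filterByExpr (minimum count 10). It kept 13707 genes, with 6 residual degrees of freedom each. The biological coefficient of variation was 0.114. P-values were Benjamini-Hochberg adjusted over all genes of a comparison. Normalised CPM are counts per 1000000 of the TMM-scaled library. The members and lists were chosen with earlier results of these data known. Named are all listed BCL2 family genes, the 6 genes of each other pathway list with the smallest p in P7 platelets against control, and the 3 genes nearest in course to each of the 2 members with the smallest p; Apaf1, Cycs, Casp8 and Xiap were added after their values were seen, and 1 gene that the rule picks from the apoptosome list is not reported here. Marker sums are CPM of the library total; Ahsp was not analysed here.

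Alternatives were DESeq2 1.42.0 size factors and Wald test, upper-quartile factors, limma-voom (3.58.1), no filter, a mean of at least 50 counts, only the groups compared, a replicate block, a term marking the high-Igkc libraries, removal of platelet, erythroid and mitochondrial transcripts, and each library left out in turn. Same-numbered P7 platelet and control libraries deviated together from their group means (r = 0.50, 0.241 and 0.394), all above 0.1, though P7 platelet replicate 2 correlated more with control replicate 3 (r = 0.406). Values in the text come from the fit without a block.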

Additional observations from a re-analysis of the deposited data

Results flagged for a closer look

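Bnip3l was lower with adult platelets and higher with P7 platelets than in control, and the test of the difference between P7 and adult platelets gave a log2 value of 0.88 ± 0.06 (adjusted p = 2.83e-05, edgeR). The 2 comparisons with control share the control libraries, while the test of the difference uses the platelet libraries directly. No group of libraries was large enough for a search for a single library far from the others. The chi-square per gene between 2 libraries of a group measures how far their counts differ. For P7 platelet replicate 1 against 2 and 3 it was 27.3 and 30.9, and for 2 against 3 it was 5.85. For control the same values were 18.7, 25.3 and 4.81, and for adult platelets 35.5, 32.1 and 39.8. Why replicate 1 stood apart with P7 platelets and in control was not tested.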

How the results depend on the processing

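Over 19 alternatives the number of members called was 6 to 8 for P7 platelets against control, 2 to 4 for adult platelets against control and 6 to 8 for P7 against adult platelets; leaving out each library gave 6 to 7, 2 to 4 and 6 to 8. The genes called ranged from 7058 to 8403, from 2036 to 3756 and from 3999 to 5516 in those fits (all libraries: 8111, 3617 and 5424), with 2036 without control replicate 2 and 2207 without control replicate 3. Genes called in the pathway lists ranged from 33 to 37, from 6 to 15 and from 23 to 32 (all libraries: 36, 12 and 29), and adult platelets gave 6 without control replicate 2 and 19 with the Igkc term. The replicate block changed no call of a member (7, 3 and 8 called); it called Huwe1 and Usp9x higher with P7 platelets than control or adult platelets (adjusted p = 0.0204 to 0.0442), Bmf lower with adult platelets (-0.37, adjusted p = 0.0464) and Bad lower with P7 than adult platelets (-0.26, adjusted p = 0.0331). Same-numbered P7 and adult libraries (r = 0.389, 0.52 and -0.172) and adult and control libraries (0.514, 0.067 and -0.04) did not all deviate together.

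Signs turned only for values that did not pass. Upper-quartile factors gave -0.01, -0.02 and -0.03 for Bbc3, Xiap and Casp8 with P7 platelets, and -0.01 for Bcl2a1d with adult platelets and for Gsk3b between P7 and adult platelets. The Igkc term gave, with adult platelets, 0.03 for Bcl2, Huwe1 and Usp9x and -0.0049 for Bad, and limma-voom gave -0.06 for Bcl2a1d. With single libraries left out, values with adult platelets crossed 0 for Bcl2 (-0.06 to 0.05), Bcl2a1b (-0.24 to 0.49), Bcl2l2 (-0.03 to 0.03), Bcl2a1c (-0.31 to 1.08), Bcl2a1d (-0.35 to 0.35), Bad (-0.01 to 0.20), Bcl2l12 (-0.11 to 0.01), Apaf1 (-0.13 to 0.01), Xiap (-0.11 to 0.03), Bnip3 (-0.19 to 0.10), Cflar (-0.03 to 0.24), Huwe1 (-0.25 to 0.05) and Usp9x (-0.20 to 0.06), and values of P7 against adult platelets for Bcl2l11 (-0.15 to 0.07), Naip2 (-0.12 to 0.05) and Gsk3b (-0.0015 to 0.09). The cause was not tested.

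On TMM-scaled libraries the marker sums moved to 31623 (P7) and 24847 (control) CPM for monocytes, 1227 and 24.4 for platelets, 55271 (P7) for red cells, 18.4 (P7) for T and NK cells and 267 and 253 for neutrophils, which put P7 above control in the last list. With the longest transcript as length the ranks moved to 7 for Bcl2l1 and 9 for Bbc3 with P7 platelets; to 5, 6, 7 and 8 for Bcl2l11, Pmaip1, Bbc3 and Bcl2a1b with adult platelets; and to 2, 3, 4, 5, 6 and 7 for Bax, Bak1, Bid, Pmaip1, Bcl2l11 and Bbc3 in control. Depth limits Bcl2a1b and Bcl2 most among the members, with as few as 98 and 156 reads in a library.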
